A study of Mus musculus with 2 samples.

Results

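The H19 and Igf2 locus is described here as the stretch of mouse chromosome 7 from 149600000 to 150000000 (mm9), a window of 400 kb, and its members are the CTCF peaks whose centre lies inside it. The window held 19 of the 54151 peaks found in embryonic stem cells (ESC) and 23 of the 51421 peaks found in neural precursor cells (NPC). Chromatin bound by CTCF was precipitated with one antibody and sequenced on the SOLiD platform in 2 libraries. The ESC were E14 cells (subline IB10), a mouse line kept undifferentiated with serum and leukemia inhibitory factor in medium conditioned by BRL cells. The NPC were made from E14 ESC and grown on gelatin with N2 supplement, basic FGF and EGF. Both groups therefore share the E14 background, neither carries a stated mutation or drug treatment, and each is 1 library. The lists hold no gene expression, so the identity of either cell type could not be checked against its markers. With 1 library per cell type there is no replicate check: no p-value is given, and intervals cover counting error over peaks only.

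H19 and Igf2 are neighbouring imprinted genes. H19 makes a non-coding RNA from the maternal chromosome and is host to Mir675, and Igf2 encodes insulin-like growth factor II, a fetal growth factor made mainly from the paternal chromosome. Between them, just beyond the start of H19, lies the imprinting control region. It is known to bind CTCF on the unmethylated maternal copy, where it acts as an insulator between Igf2 and enhancers on the far side of H19 (the side away from Igf2), whereas the paternal copy is methylated. Reads of the parental copies are not told apart in a peak list. In the coordinates used to define the locus, H19 spans 149761434 to 149764051 and Igf2 about 149836000 to 149853000. Igf2 is read towards H19, so its upstream side faces away from H19. In RefSeq's gene order on GRCm38, Nctc1, Mrpl23 and Tnnt3 come next on the far side of H19, and Igf2os, a non-coding RNA gene, and then Ins2, an insulin gene, follow Igf2 on its upstream side. Their mm9 positions were not used, and no peak was assigned to them.

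The sequence of the peaks on mm9 was not used here. Of the pair of genes, Igf2 was matched in RefSeq's promoter table and H19 was not. The table lists 4 starts for Igf2. The outermost, which faces the peaks upstream of the gene, and the innermost, which is nearest to H19, are shown as the ends of the gene's start regions, since no CTCF peak fell within Igf2. Each line gives the 250 bases before the start on the minus strand of GRCm38, at chr7:142666817-142667066 for the outermost and chr7:142657497-142657746 for the innermost. These positions belong to another build and cannot be set beside the mm9 peaks. Capitals mark CCCTC, the pentamer after which CTCF is named, or its reverse complement GAGGG, overlapping matches included.
Igf2 outermost start: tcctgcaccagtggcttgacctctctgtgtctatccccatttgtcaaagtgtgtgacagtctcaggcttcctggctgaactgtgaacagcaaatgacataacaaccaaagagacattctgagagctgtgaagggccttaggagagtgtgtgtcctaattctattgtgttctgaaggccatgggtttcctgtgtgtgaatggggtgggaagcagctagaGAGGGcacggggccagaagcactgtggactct
Igf2 innermost start: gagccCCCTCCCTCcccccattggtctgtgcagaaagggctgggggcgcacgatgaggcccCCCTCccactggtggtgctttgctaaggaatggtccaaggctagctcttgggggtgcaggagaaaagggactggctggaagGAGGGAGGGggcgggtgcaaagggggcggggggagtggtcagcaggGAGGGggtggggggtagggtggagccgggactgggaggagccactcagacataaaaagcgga
From the outermost to the innermost, the 4 starts had 1, 0, 8 and 6 matches. On either strand the pentamer occurs in 60.5% of the 32851 start regions of this length in the table, so a match is common. A match is a description of these letters, not a bound site.

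No CTCF peak was called at H19, in the control region beside it or within Igf2, in either cell type. The counts of peaks overlapping H19, overlapping Igf2 and lying in the 5 kb beyond the H19 start were each 0 in ESC and 0 in NPC, and widening the last stretch to 10 kb or to 30 kb also gave 0. The nearest peaks on the far side of H19 ended 37033 bp before the gene in ESC and 37108 bp before it in NPC. On the side of Igf2 the nearest began 32253 bp from H19 in ESC and 32270 bp in NPC. H19 and its control region thus lay in a stretch without peaks of 71902 bp in ESC and 71994 bp in NPC, the longest inside the window in both lists. Such a distance is not rare: 16.2% of the distances between neighbouring ESC peaks and 17.2% of those between NPC peaks were at least as long. By length, stretches at least as long held 66.7% of all bases between ESC peaks and 67.2% of those between NPC peaks. The peak numbers given by the caller ran without a break through the window in both lists, so no numbered peak was missing there. Every listed peak scored at least 100.02 in ESC and 100.01 in NPC, and the lists hold no reads, so binding below that limit was not detectable. Whether reads could be mapped to the control region was not tested.

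The window as a whole was rich in peaks, but they were unevenly spread. Windows of 400 kb laid end to end over the genome held a median of 6 peaks (quartiles 2 and 12) in each list. At least 19 ESC peaks were found in 11.6% of 6588 windows and at least 23 NPC peaks in 4.91% of 6585 windows. On chromosome 7 alone those shares were 16.8% and 8.40% of 381 windows. The far side of H19, 161.434 kb long, held 10 ESC and 13 NPC peaks, the 71.949 kb between the genes held 1 in each, and the 147 kb upstream of Igf2 held 8 and 9. The stretch around H19 was not the only long one without peaks. Another, which spans Igf2, was 61029 bp long in ESC and 60077 bp in NPC. A further one, from 149924086 to 149985180 in ESC, was 61093 bp long there and 61027 bp in NPC.

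**Figure D1:**
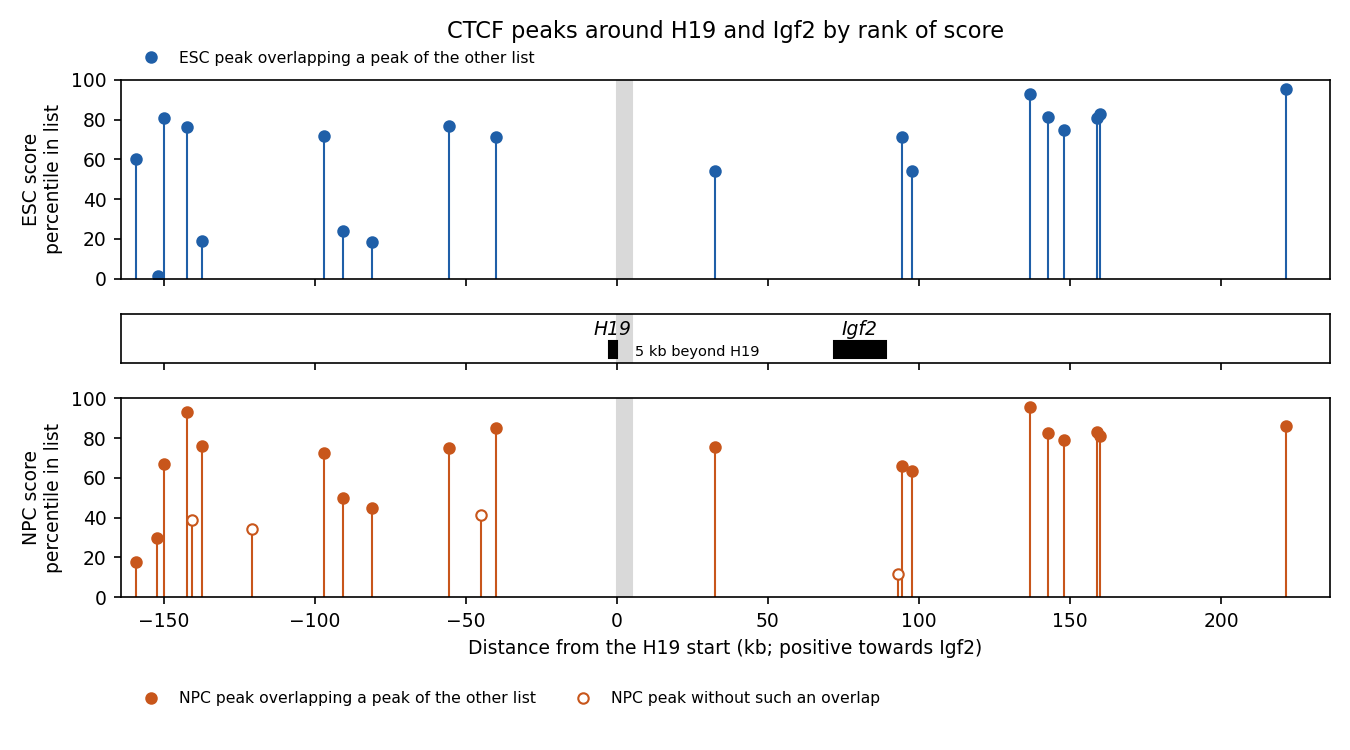
Position of every CTCF peak of the window, as distance in kb from the H19 start (horizontal), against its score percentile within its own list (vertical), with ESC above, the genes in the middle and NPC below; open circles are NPC peaks that overlap no ESC peak and the grey band is the 5 kb beyond the H19 start. The band, H19 and Igf2 are without peaks in both cell types, and the nearest peaks lie 32253 bp (ESC) and 32270 bp (NPC) beyond H19.

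All 19 ESC peaks of the locus were also found in NPC, and 4 further peaks were called in NPC alone. A peak counts as shared when the other cell type has a peak with 1 bp or more in common with it. The ESC share was 100% (exact 95% interval 82.4 to 100), where 74.0% of all ESC peaks and 74.7% of those on the rest of chromosome 7 were shared. Among NPC peaks 19 of 23 were shared (82.6%, 61.2 to 95.05), beside 78.6% of all NPC peaks, so the NPC share was near that of its list. The share rises with score in both lists, and most peaks of the locus scored high. Of the ESC peaks, 15 scored above their list's median, a range in which 4.96% of the list was unshared, and the other 4 at or below it, where 47.1% was unshared. None of either was unshared at the locus. Of the NPC peaks, 15 scored above their list's median and all 15 were shared, where 5.01% of the list was not. At or below the median 4 of 8 were unshared, against 37.7% of the list.

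Scores are the values the authors deposited for each peak. Their definition is not stated, so they are compared between cell types only as percentiles, the per cent of the peaks of the same list that score lower. The median percentile of the locus was 71.7 in ESC (95% interval 54.2 to 80.8 over 19 peaks) and 72.5 in NPC (44.8 to 81.2 over 23 peaks). The range ran from 1.45 to 95.3 in ESC and from 11.7 to 95.5 in NPC. In each list 2 peaks of the locus were among the highest 10% of scores.

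The sites are numbered 1 to 23 along the chromosome, away from the far side of H19 towards and past Igf2. Between the genes there was a single site, number 14, called at 149796304 to 149796895 in ESC. It scored 595 in ESC, at percentile 54.4, and 873 in NPC, at percentile 75.7. It was therefore a middling ESC peak that ranked 21.3 points higher in NPC, and 15.1% of all pairs had a larger difference of that sign. Its width was nearly equal in the lists, at 592 bp and 597 bp, although NPC peaks were narrower in 87.4% of all pairs.

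Upstream of Igf2 the first sites lay a few kb from the gene. Site 15, an NPC peak at 149856995 to 149857307, was the nearest to Igf2, about 4 kb away. It was weak, with a score of 132 at percentile 11.7, and no ESC peak overlapped it, but one began 617 bp further on. That neighbour is site 16, at 149857925 to 149858621 in ESC and about 4.9 kb from the gene. Site 16 scored 943 in ESC (percentile 71.2) and 641 in NPC (percentile 65.8). Site 17, at 149861501 to 149862040, scored 592 in ESC (percentile 54.2) and 596 in NPC (percentile 63.6). Both ranked above the middle of their list in each cell type.

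Further upstream 5 sites, numbers 18 to 22, lay within 23.702 kb and ranked high in both cell types. Their percentiles ran from 75.0 to 93.0 in ESC and from 79.3 to 95.5 in NPC. The strongest was site 18, at 149900385 to 149901126, with a score of 1666 in ESC (percentile 93.0) and 1785 in NPC (percentile 95.5). Site 19 (149906492 to 149907231) reached percentile 81.2 in ESC and 82.4 in NPC, and site 20 (149911826 to 149912455) 75.0 and 79.3. Sites 21 (149922650 to 149923356) and 22 (149923573 to 149924086) form a close couple, with 216 bp between the ESC peaks and 372 bp between the NPC peaks. Site 21 had percentiles of 80.8 and 83.0 and site 22 of 82.8 and 81.2, in ESC and NPC. Within this group the ranks moved by -1.59 to 4.26 points from ESC to NPC. The last site of the window, number 23 at 149985180 to 149985859, was the highest ESC peak of the locus, with a score of 1842 (percentile 95.3), and had a score of 1220 (percentile 86.2) in NPC.

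The far side of H19 held sites of very unequal rank. Enhancer positions were not used, so no site was matched to an enhancer. Site 13, the closest to H19 there, was called at 149723637 to 149724401 in ESC. It scored 943 in ESC (percentile 71.2) and 1181 in NPC (percentile 85.2). Sites 8 (149666891 to 149667610) and 11 (149708148 to 149708801) kept nearly the same rank. Site 8 had percentiles of 71.7 and 72.5, and site 11 of 76.8 and 75.2, in ESC and NPC. Sites 9 and 10 ranked low in ESC and in the middle of the NPC list. Site 9 (149673077 to 149673628) went from percentile 24.1 to 49.9, and site 10 (149682849 to 149683107) from 18.6 to 44.8.

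The largest differences in rank were at the far end of the window. Site 6, at 149626347 to 149626898, had a score of 182 in ESC, at percentile 19.1, and of 875 in NPC, at percentile 75.8. This difference of 56.7 points, the largest rise among the 19 shared sites, was exceeded by 0.902% of all 39595 pairs of single overlapping peaks. Pairs that rank low in ESC tend to rank higher in NPC. Among the 5341 pairs under percentile 25 in ESC, the median difference was 17.1 points (quartiles 2.36 and 34.7). The share of those 5341 pairs with a larger difference than site 6 is not given here. Site 1, at 149604492 to 149605161, went the other way, from a score of 701 in ESC (percentile 60.0) to 153 in NPC (percentile 17.8), and 5.45% of all pairs had a lower difference than its -42.2 points. Its NPC peak, 313 bp wide against 670 bp in ESC, was as narrow as any NPC peak of the locus.

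Between sites 1 and 6 lay 3 further shared sites with no common direction. Site 2, at 149611886 to 149612257, was the weakest ESC peak of the locus. It scored 104 in ESC (percentile 1.45), close to the lowest score listed, and 210 in NPC (percentile 29.9). Its peaks overlapped in part, with centres 132.5 bp apart against a median of 32 bp over all pairs. Site 3 (149613877 to 149614670) went from percentile 80.8 to 67.2, and site 4 (149621336 to 149622024) went from 76.3 to 93.0, the second-highest NPC peak of the locus.

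**Figure D2:**
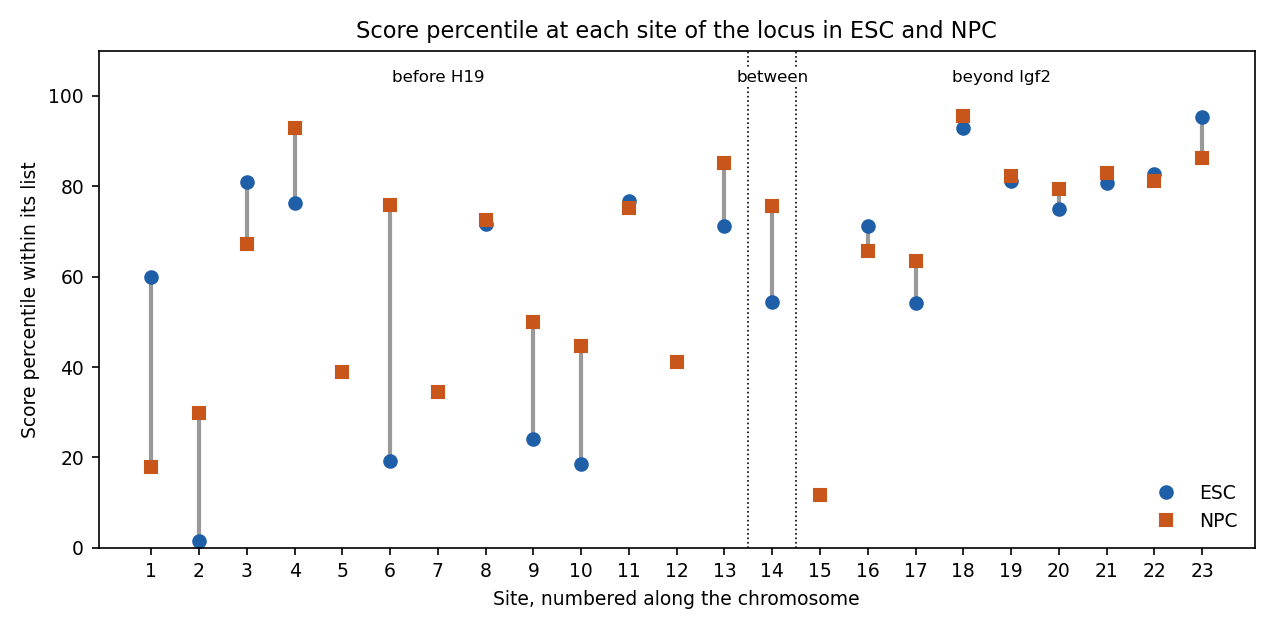
Score percentile within its own list (vertical) at each of the 23 sites in chromosomal order (horizontal), with circles for ESC, squares for NPC and a grey bar joining the values of a shared site; dotted lines part the far side of H19, the stretch between the genes and the side upstream of Igf2. The bars are long at sites 1 and 6, which differ by -42.2 and 56.7 points, and short at sites 18 to 22.

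The 4 NPC-only peaks were weak to middling. They were site 5 (149623271 to 149623640, percentile 38.8), site 7 (149643034 to 149643519, percentile 34.4), site 12 (149718807 to 149719180, percentile 41.1) and site 15, given above. Their median percentile was 36.6, against 75.7 for the shared NPC peaks of the locus and 21.3 over all 10984 NPC-only peaks. The nearest ESC peak was 1246 bp from site 5, 16135 bp from site 7, 4456 bp from site 12 and 617 bp from site 15. For scale, neighbouring ESC peaks of the window were a median of 7972 bp apart. No ESC-only peak lay in the window.

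The sides of the locus differed in how far ranks moved. Upstream of Igf2 all 8 shared sites kept their percentile to within 10 points, with a median absolute difference of 3.40 points (range 1.20 to 9.37). On the far side of H19, 2 of 10 did, with a median absolute difference of 21.2 points (range 0.772 to 56.7). Over all pairs the median was 14.5 points, and 37.5% were within 10 points. The sides also differed in ESC score: all 4 shared sites under percentile 25 in ESC lay on the far side of H19. Those 4 ranked higher in NPC, by 25.8 to 56.7 points, and of the 5341 pairs in the lists with such a low ESC rank 78.8% ranked higher in NPC, with a median difference over all 5341 of 17.1 points. Among sites over percentile 50 in ESC, the median absolute difference was 3.40 points at the 8 sites upstream of Igf2 and 13.8 points at the 6 on the far side of H19 (range 0.772 to 42.2), beside 12.6 points over the 25320 such pairs in the lists. Rank was not matched further among these sites. Their ESC percentiles reached 95.3 upstream of Igf2 and 80.8 on the far side of H19. Whether the sides differ at equal ESC rank was not tested. Over the 19 shared sites 13 ranked higher in NPC and 6 lower, against 47.1% higher among all pairs. The median difference was 2.53 points (95% interval over sites -1.65 to 21.3), beside -1.18 points over all pairs. With 1 library per cell type, that interval is no test of a difference between ESC and NPC.

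**Figure D3:**
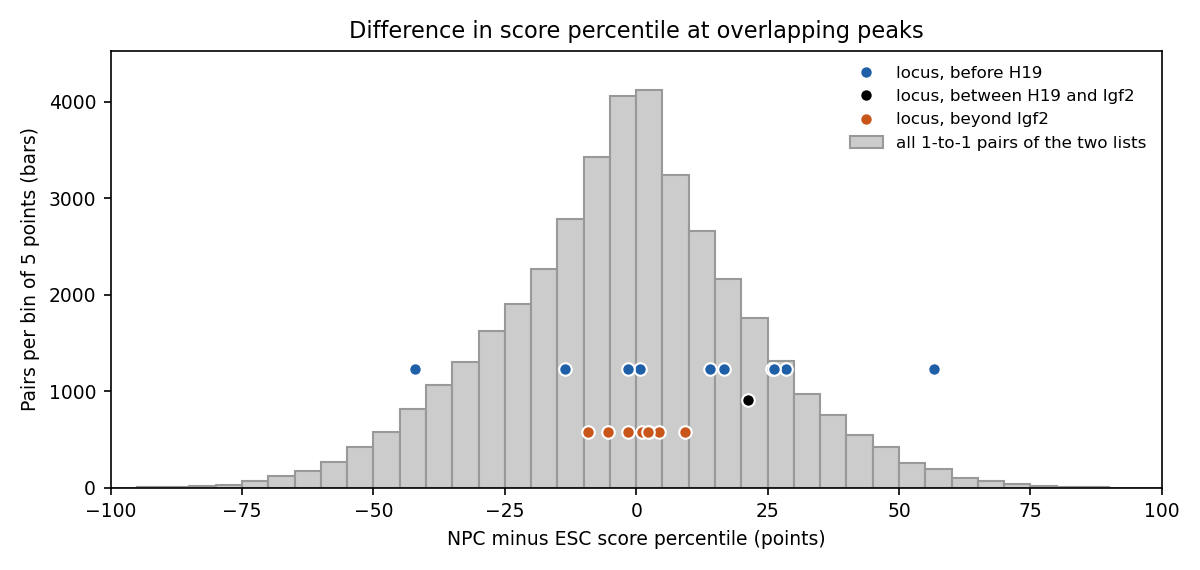
Difference in score percentile, NPC minus ESC, in points (horizontal); grey bars count all 39595 pairs per bin of 5 points (vertical), and coloured points, set at arbitrary heights, are the 19 shared sites of the locus by segment. Sites upstream of Igf2 lie within 9.37 points of 0, and those on the far side of H19 run from -42.2 to 56.7.

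The median width of the locus peaks was above the median of either list. It was 670 bp in ESC, against 573 bp (quartiles 465 and 683) in the whole ESC list. In NPC it was 533 bp, against 433 bp (quartiles 346 and 527). Most peaks of the locus scored high, and widths were not compared at matched score. The NPC peak was the narrower one at 15 of 19 shared sites, where it was so in 87.4% of all pairs. The width of the NPC peak was a median of 0.921 times that of the ESC peak, against 0.761 over all pairs. The exceptions were sites 2, 9, 10 and 14, of which site 10 had an ESC peak of 259 bp and an NPC peak of 547 bp. Each of these 4 sites also ranked higher in NPC, as did 13 of the 19 shared sites. Sites 2, 9 and 10 were under percentile 25 in ESC, where 78.8% of all pairs ranked higher in NPC. The share among all pairs with a wider NPC peak is not given here. Centres of paired peaks were a median of 39.5 bp apart, with a range from 5 to 132.5 bp.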

How the data were processed

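Per the file headers, the authors called peaks with MACS in each library, and they deposited 1 score per peak without defining it; per the submitters' processing notes, coordinates are on mm9. For the MACS version, threshold, aligner and control, the value is not given in the sources used; the depth is unknown. Positions are printed 1-based. All peaks with their centre in the window were taken and all are named; gene spans are those of the locus definition, not of an mm9 annotation. Members, lists and comparisons were chosen with earlier results of these data known. Overlap (at least 1 bp), pairs (peaks that overlap exactly 1 peak of the other list) and percentiles (ties counted by their mean rank) were computed over both whole lists with scipy 1.17.1, pandas 2.3.3 and numpy 2.4.6 under Python 3.11.15; matplotlib 3.10.9 drew the plots. Intervals are exact Clopper-Pearson for shares and from order statistics for medians. Overlap was first tested on a simulated list of shifted copies of ESC peaks, and percentiles on a short list with a known answer. The step that keeps only pairs of single overlapping peaks was not part of that test. Alternatives were 50% reciprocal overlap, centres within 100 bp, peaks within 1 kb, upper 50% by score, wider or narrower windows, percentiles within chromosome 7 and a control region of 10 kb. The limits of percentiles 25 and 50 and of 10 points, the 30 kb stretch and the group of sites 18 to 22 were chosen after seeing the values.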

Additional observations from a re-analysis of the deposited data

How the results depend on the processing

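Of the 25 recomputed values 24 stayed inside the 95% interval of the reported one, or were equal to it. That is a weak check, because the intervals are wide and most recomputations used the same peaks. For the NPC share, the interval ran from 61.2% to 95.05%. Restricted to scores in the upper 50% of a list, all 15 NPC peaks were shared (100%), because all 4 NPC-only peaks scored lower than that. A 50% reciprocal overlap gave an ESC share of 89.5% and an NPC share of 73.9%. A limit of 100 bp between centres gave 94.7% and 78.3%. The shares of the whole lists under these stricter rules are not given here. These values therefore cannot be set beside the list shares at 1 bp of overlap. The median difference in percentile ran from 1.66 to 9.37 points, the last with 5 pairs in the window narrowed by 100 kb on each side. Widening by 100 kb brought 1 ESC-only peak into the window. No paired analysis was possible because each cell type has 1 library, and for the same reason none could be left out. Depth was not known, so where no peak is listed, absent binding and binding below the calling limit cannot be told apart, and mappability was not tested.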

Other observations

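The 100 kb on either side of the window held sites outside the locus as defined here. On the far side of H19 there were 2, both shared, at 149502220 to 149502962 (percentile 66.7 in ESC and 76.3 in NPC) and at 149519924 to 149520741 (90.5 and 88.2). Past the other edge there were 2 shared sites, at 150036517 to 150037007 (74.9 and 84.7) and at 150080384 to 150081129. The latter scored 1893 in ESC (percentile 95.8) and 2741 in NPC (percentile 99.2), higher in both lists than any site of the window. One ESC-only peak, at 150095514 to 150096025, scored 361 (percentile 39.1).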
